A study of Mus musculus with 4 samples.

Results

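The genes described here are 10 AP-1 and immediate early genes of mouse liver, namely Fos, Fosb, Fosl1, Fosl2, Jun, Junb, Jund, Atf3, Egr1 and Ier2. They were taken by gene symbol from the platform annotation, which names 14 probe sets for them, out of 45101 probe sets on the array and 18194 genes with a probe set of their own. The rule uses symbols and no measured value. Liver RNA was hybridised to 4 Affymetrix mouse GeneChips, 1 for each genotype, and each array received equal amounts of RNA from 3 non-fasted mice of 5 weeks, killed in the late morning and labelled as males of a mixed hybrid strain. The WT mice carried no Cre, and the study's supplementary table heads that column with the floxed Rps6 genotype. The DS6 mice were Rps6 lox/lox with the Alb-Cre transgene, which deletes Rps6 in hepatoblasts before birth and, per the study's own analysis, incompletely. The Myc mice overexpressed c-Myc from the albumin promoter in hepatocytes with Rps6 intact, and the DS6 Myc mice carried both the deletion and the c-Myc transgene. Since each genotype is 1 pool on 1 array, no difference could be set against a spread between animals, and p-values are left out.

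AP-1 is a transcription factor made of paired bZIP proteins. A Jun protein pairs with a Fos protein, with another Jun protein or with an ATF protein such as Atf3, and the pair binds short DNA elements called TRE and CRE. Immediate early genes, to which Fos, Jun, Junb, Egr1, Atf3 and Ier2 belong, are transcribed within minutes of a stimulus without new protein synthesis, through MAP kinases and factors already bound at their promoters, and their mRNAs are short-lived. In liver they are known from the first hours after partial hepatectomy, from injury and from cytokine signals, and they also respond to the handling of tissue.

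Some facts of the arrays bear on every value below. Hepatocyte markers (Alb, Ttr, Apoa1, Apob, Tat and Hnf4a) lay at log2 values between 13.30 and 15.46 on the 4 arrays, so the labelled tissue was borne out by its markers. Myc, the transgene, was at 8.33 in WT and 8.89 in DS6 against 11.68 in Myc and 11.37 in DS6 Myc liver. The deleted gene was checked with 9 probe sets shared by Rps6 and its pseudogene, which had a median log2 ratio of -0.29 in DS6 over WT and of -1.76 in DS6 Myc over Myc. The 2 probe sets that name Rps6 and no other gene disagreed in sign in both comparisons, so the deletion was checked only in part. The paper also reports more recombination and less Rps6 mRNA in livers with both changes than in DS6 livers. By contrast, it found RPS6 protein levels unchanged there, and it links the recombination to hepatocytes kept viable by c-Myc. The 2 deletion comparisons thus differ in recombination and in the fall of Rps6 mRNA. The part of this in the difference between their ratios was not tested. The WT array stood apart from the other 3. It had Xist, which coats the silenced X in females, at a log2 value of 11.84 against 5.88 to 6.33 elsewhere, which goes against its label as male. Its Y-linked mRNAs Eif2s3y (8.67 against 8.91 to 9.11), Kdm5d (7.70 against 8.07 to 8.25) and Uty (7.73 against 7.79 to 8.03) were lowest in WT, though within 2-fold. In a pool of 3 mice these values do not settle the sex of each animal. The linear values of 5 exocrine pancreas mRNAs summed to 8148 in WT against 1743 to 3302. The ratio of each member past 2-fold in DS6 over WT is therefore also given with Myc in place of WT.

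Promoter sequence is shown for 4 members that were at least 2-fold higher in DS6 than in WT, since they hold matches to elements through which CREB, ATF and AP-1 proteins are known to bind. RefSeq promoters on GRCm38.p6 matched 7 of the 10 members, and the 250 bases before the start site of each were searched. Fosl1, Egr1 and Ier2 had no promoter entry and were not searched. The letters searched were TGACG (the CRE half-site), TGACGTCA (the full CRE, which contains the half-site on both strands), TGACTCA (the TRE) and TGACATCA (a TRE-like element), all on both strands, TATAAA on the sense strand, and the CArG box, the element of the serum response factor. Capitals mark the matches. Each sequence runs 5′ to 3′ on the strand of the gene, at chr12:85473640-85473889 (plus strand) for Fos, chr4:95052223-95052472 (minus strand) for Jun, chr8:84978749-84978998 (minus strand) for Junb and chr1:191183334-191183583 (minus strand) for Atf3.
Fos: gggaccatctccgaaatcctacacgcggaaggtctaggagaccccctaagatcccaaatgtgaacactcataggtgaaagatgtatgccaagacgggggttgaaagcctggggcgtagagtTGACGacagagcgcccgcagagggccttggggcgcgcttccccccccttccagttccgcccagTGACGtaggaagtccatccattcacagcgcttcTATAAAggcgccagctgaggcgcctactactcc
Jun: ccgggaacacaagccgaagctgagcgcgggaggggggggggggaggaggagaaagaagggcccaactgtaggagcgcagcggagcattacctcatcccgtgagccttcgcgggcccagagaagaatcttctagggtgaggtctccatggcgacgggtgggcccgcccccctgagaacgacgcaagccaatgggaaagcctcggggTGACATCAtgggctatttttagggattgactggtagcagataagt
Junb: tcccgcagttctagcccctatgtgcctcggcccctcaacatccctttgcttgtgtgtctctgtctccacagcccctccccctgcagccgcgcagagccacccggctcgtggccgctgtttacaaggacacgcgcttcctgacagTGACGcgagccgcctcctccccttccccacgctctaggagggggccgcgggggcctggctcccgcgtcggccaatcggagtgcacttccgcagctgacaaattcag
Atf3: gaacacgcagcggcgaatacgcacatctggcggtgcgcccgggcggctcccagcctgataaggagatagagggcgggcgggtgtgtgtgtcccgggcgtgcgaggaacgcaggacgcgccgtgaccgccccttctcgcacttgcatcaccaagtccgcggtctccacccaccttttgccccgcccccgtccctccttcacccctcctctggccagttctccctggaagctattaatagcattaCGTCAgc

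The Fos promoter held a CRE half-site at bases -129 to -125 and another at -66 to -62 from the start site, with a TATA box at -33 to -28. The Jun promoter held the TRE-like element at -45 to -38, and it was the 1 member promoter of 7 with this element. A half-site lay at -106 to -102 in Junb and, on the other strand, at -7 to -3 in Atf3. The promoter of Fosb, which is not printed, also held a half-site, at -60 to -56. The half-site is common, being in 17.8% of all 32851 promoter windows of this length and in 4 of the 7 member promoters. The TRE-like element was in 2.93% of all windows and the TATA box in 7.59%. The full CRE (1.55% of all windows), the TRE (4.46%) and the CArG box (1.47%) had no match in the 7 member windows, which says only that these letters are not within 250 bases of the annotated start.

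**Figure D1:**
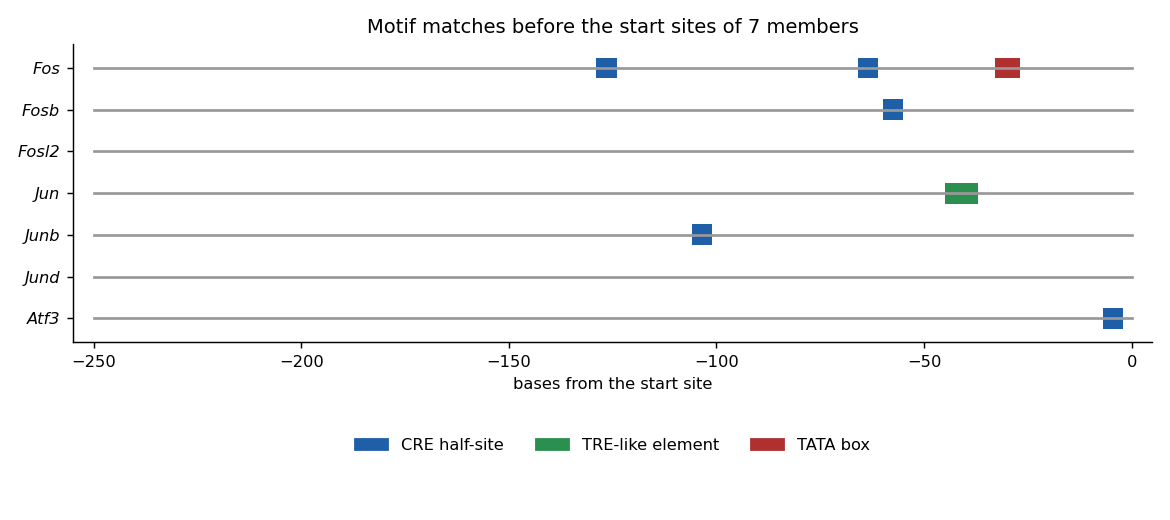
Positions of the motif matches (coloured blocks) in the 250 bases before the start sites of 7 members, with the distance from the start site in bases on the horizontal axis. Fos has 2 CRE half-sites and a TATA box, Jun the single TRE-like element, and Fosl2 and Jund have no match.

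Of the 10 genes, 5 were at least 2-fold higher in DS6 than in WT and 0 were lower by that much, at a median log2 ratio of 1.25. Among all genes the share at least 2-fold higher was 7.24% and the share at least 2-fold lower was 2.54%, with a median of -0.05. Of genes with a log2 value of 6 or more on 1 or more arrays, 9.04% were higher. The 5 genes were Fos, Jun, Junb, Atf3 and Egr1. With Myc in place of WT the same 5 genes were at least 2-fold higher in DS6, and the median was 0.97. Where Rps6 was deleted in the presence of the c-Myc transgene, 4 of the 10 were at least 2-fold higher in DS6 Myc than in Myc and 0 were lower, with a median of 0.69. The shares among all genes there were 1.99% higher and 1.36% lower, with a median of -0.01, and 2.51% of genes at 6 or more were higher. Fos, Jun, Atf3 and Egr1 passed 2-fold in both of these comparisons, which have no array in common, though Fos did not in the second with 64 added to the linear values. The size threshold leaves Jund just short in both, at log2 ratios of 0.92 and 0.86, while Fos lies just past it in the second, at 1.11. RNA of whole liver does not separate more RNA per cell from more cells of a type that expresses the gene.

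None of the members differed by 2-fold with the transgene alone. In Myc over WT 0 were higher and 0 were lower, against 0.418% and 0.335% of all genes, and the median was 0.22. With Rps6 deleted, adding c-Myc left 8 of the 10 within 2-fold. In DS6 Myc over DS6 Atf3 was higher and Fos was lower, against 0.769% of all genes higher and 4.29% lower, with a median of 0.02 against 0.05 for all genes. For scale, the standard deviation between bright probe sets of the same gene was 0.27 for DS6 over WT, 0.24 for DS6 Myc over Myc, 0.14 for Myc over WT and 0.20 for DS6 Myc over DS6. This is a spread between probes and not a replicate error.

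**Figure D2:**
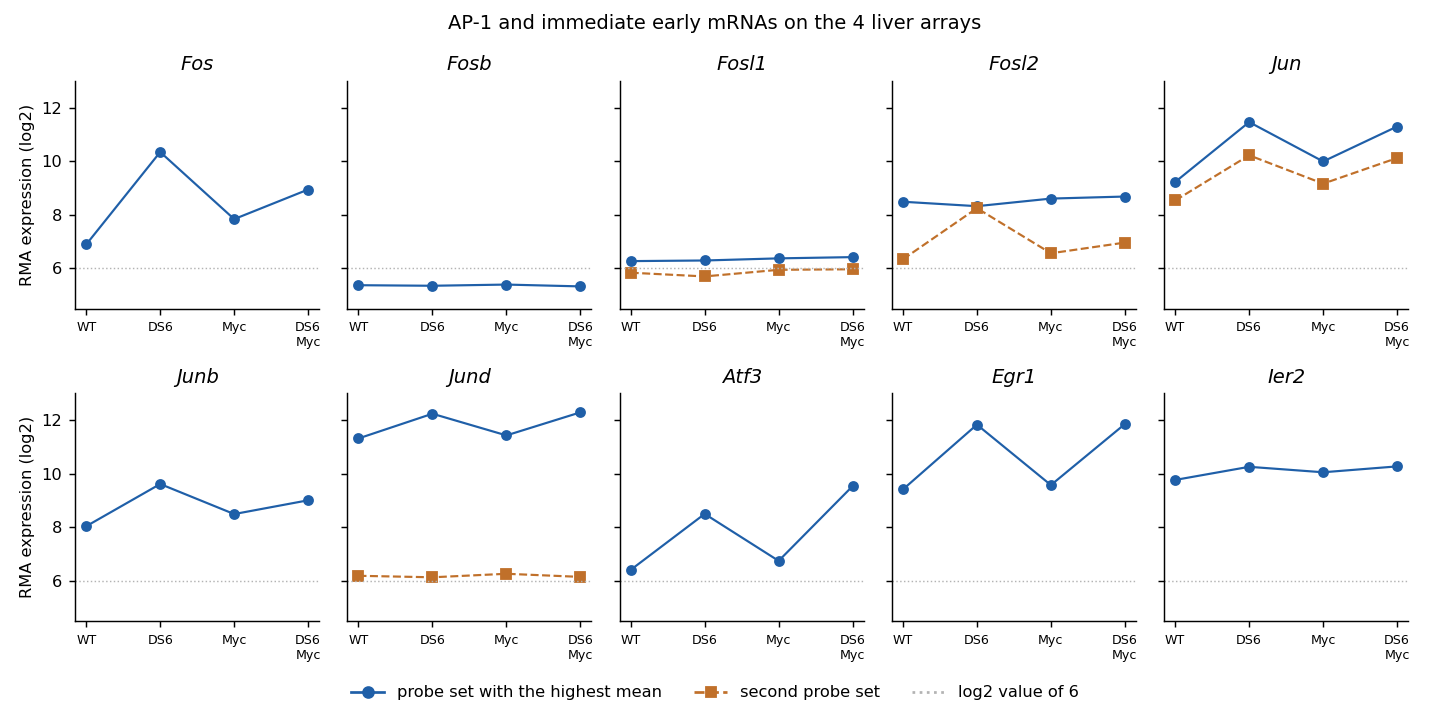
RMA expression (log2, vertical axis) of the 10 genes in WT, DS6, Myc and DS6 Myc liver (horizontal axis, 1 pooled array each), where points are probe sets and lines join the values of 1 probe set. Fos is highest in DS6 at 10.35, Atf3 is highest in DS6 Myc at 9.54, Egr1 is at 11.83 and 11.85 on these 2 arrays, and the 2 probe sets of Fosl2 differ.

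In the Fos family Fos was the 1 gene of 4 past 2-fold by its brightest probe set. Fos, the founding partner of Jun in AP-1, had log2 values of 6.90 in WT, 10.35 in DS6, 7.84 in Myc and 8.95 in DS6 Myc. It was highest in DS6, then in DS6 Myc, then in Myc, and each step between neighbours in this order was larger than the spread between probe sets. The log2 ratio of DS6 over WT was 3.45 (10.9-fold), rank 67 from the highest of 18194 genes, and 2.51 with Myc as the reference. With the transgene the deletion ratio was 1.11 (2.15-fold), smaller by 2.35 on the log2 scale than without it. The transgene went with a higher value where Rps6 was intact (0.95) and a lower value where it was deleted (-1.40). The WT value is low, and adding 64 to the linear values brought the ratio of DS6 over WT to 2.90 and that of DS6 Myc over Myc to 0.93, below 2-fold. Fos has a single probe set, so no second reading of it was available.

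The other Fos family genes showed small differences or depended on the probe set. Fosb, whose product pairs with Jun proteins as Fos does, had log2 values of 5.38, 5.35, 5.40 and 5.33 in WT, DS6, Myc and DS6 Myc. All of these lie below 6, within 0.07 of each other, and no order can be read from them. Fosl1, which encodes Fra-1, had 6.28, 6.30, 6.38 and 6.42 in the same order, and its second probe set lay between 5.70 and 5.97. The widest gap in the second probe set was 0.27, between DS6 and DS6 Myc, from values below 6. Fosl2, which encodes Fra-2, had 8.49, 8.33, 8.61 and 8.69 by its brighter probe set, with a log2 ratio of -0.17 in DS6 over WT. Its second probe set had 6.34, 8.25, 6.57 and 6.97, a ratio of 1.91 in DS6 over WT (3.75-fold) and of 0.40 in DS6 Myc over Myc. The pair of probe sets therefore disagree about Fosl2 in DS6, and where they lie on the transcript was not analysed here. The mean of both was 0.87 for DS6 over WT, below 2-fold.

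Of the 3 Jun family genes, Jun and Junb passed 2-fold in DS6 over WT and Jun alone did in DS6 Myc over Myc. Jun, whose product can pair with itself, with Fos proteins and with Atf3, had log2 values of 9.23 in WT, 11.47 in DS6, 10.00 in Myc and 11.30 in DS6 Myc. The 2 arrays with deleted Rps6 differed by 0.17, less than the probe spread, and both lay above the other 2. The log2 ratio was 2.24 (4.72-fold) without the transgene and 1.31 (2.47-fold) with it, and 1.47 for DS6 over Myc. The second probe set of Jun had 8.54, 10.23, 9.17 and 10.13 in the same order of arrays, with ratios of 1.69 and 0.96, the latter just short of 2-fold. Both probe sets thus place the arrays in the same order.

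Junb, a Jun family member that can restrain the activity of Jun, had 8.04 in WT, 9.61 in DS6, 8.49 in Myc and 9.01 in DS6 Myc. It followed the order of Fos, with a ratio of 1.58 (2.98-fold) in DS6 over WT, of 1.12 over Myc and of 0.51 in DS6 Myc over Myc. Jund, which in many tissues is expressed without stimulation, had 11.32, 12.24, 11.43 and 12.29 by its brighter probe set. The ratio of 0.92 without the transgene and 0.86 with it differed by 0.06, less than the probe spread, and both fell short of 2-fold. The second probe set of Jund lay between 6.13 and 6.26 on all 4 arrays and showed no such difference. With the probe sets of each gene averaged, Jund had 0.43 and 0.37.

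Atf3 and Egr1 were as high or higher in DS6 Myc than in DS6. Atf3, a stress-induced bZIP factor that pairs with Jun proteins, had log2 values of 6.41 in WT, 8.50 in DS6, 6.74 in Myc and 9.54 in DS6 Myc. It was the 1 member with its highest value in DS6 Myc by more than the probe spread. The ratio was 2.09 (4.26-fold) without the transgene and 2.79 (6.93-fold) with it, the latter at rank 20 from the highest of 18194 genes. Over Myc the DS6 ratio was 1.75. With 64 added to the linear values these ratios were 1.52 and 2.24.

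Egr1, a zinc finger factor induced through the serum response factor together with Fos, had 9.41 in WT, 11.83 in DS6, 9.58 in Myc and 11.85 in DS6 Myc. The 2 deleted arrays and the 2 intact arrays formed pairs of nearly equal values. The ratio was 2.42 (5.35-fold) without the transgene and 2.28 (4.85-fold) with it, a difference of -0.14, and 2.26 for DS6 over Myc. Egr1 thus differed from Fos, whose deletion ratio was smaller by 2.35 with the transgene. This contrast is between single arrays, with unlike falls in Rps6 mRNA as given above, and was not tested. Ier2, a short immediate early protein of the nucleus, had 9.77, 10.26, 10.05 and 10.27, with ratios of 0.49 and 0.22. All 4 arrays lay within 0.51 of each other, below 2-fold.

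**Figure D3:**
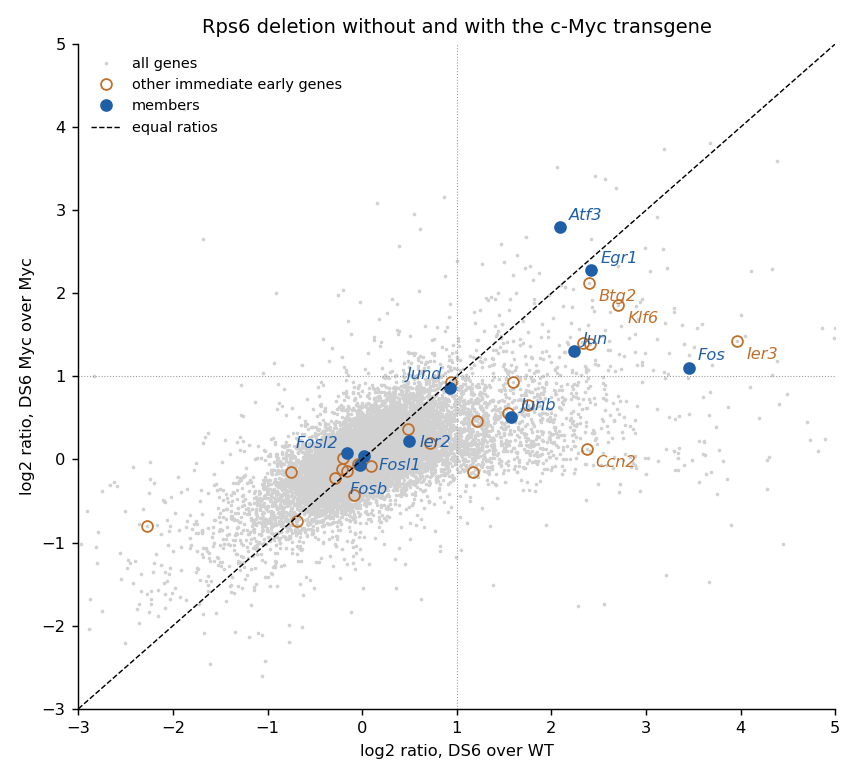
Log2 ratio of DS6 over WT (horizontal axis) against that of DS6 Myc over Myc (vertical axis), with members as filled points, other immediate early genes as open points and all genes in grey; 1 array for each genotype, dotted lines mark 2-fold, and 53 genes lie outside the axes. Egr1 lies near the dashed line of equal ratios, Atf3 above it, and Fos (3.45, 1.11) and Junb (1.58, 0.51) below it.

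Among the genes with the pattern nearest to these members, measured as the distance between their 3 log2 ratios over WT across 14359 genes, Btg2 was nearest to Egr1 (distance 0.15). Btg2, an antiproliferative immediate early gene, had log2 values of 9.04 in WT, 11.44 in DS6, 9.35 in Myc and 11.47 in DS6 Myc. H1f2 (0.37), a linker histone gene, and Smox (0.40), the gene of spermine oxidase, came next. Nearest to Atf3 were Sectm1a (0.46), Ddit3 (0.51), the stress-induced bZIP gene of CHOP, and Ccng1 (0.52), which encodes cyclin G1. Ddit3 had 8.73, 10.79, 8.67 and 12.19 on the 4 arrays. Nearest to Jun were Tmem43 (0.20), Dynll1 (0.33), a dynein light chain gene, and Tubb6 (0.38), a tubulin gene. Nearest to Fos were Lgals3 (0.42), the gene of galectin-3, Tnfrsf12a (0.43), the receptor of TWEAK, and Sprr1a (0.46), a gene of small proline-rich proteins. With 4 arrays these are likenesses of 3 differences that share the WT array.

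Other immediate early genes included Ier3 and Ccn2, with a pattern like that of Fos, and Btg2, with one like that of Egr1. Of 24 listed and measured, 11 were at least 2-fold higher in DS6 than in WT and 1 was lower (median 0.83), and 5 were higher in DS6 Myc than in Myc with 0 lower (median 0.16). The shares of all genes were 7.24% higher and 2.54% lower in DS6 over WT, and 1.99% and 1.36% in DS6 Myc over Myc. Ier3, an early regulator of cell survival, had log2 values of 6.49, 10.45, 6.27 and 7.70 in WT, DS6, Myc and DS6 Myc, with ratios of 3.96 without the transgene and 1.42 with it. Ccn2, which encodes connective tissue growth factor, had 9.12, 11.49, 9.06 and 9.18, so that its ratio of 2.37 was 0.12 with the transgene. Klf6, a zinc finger factor of liver injury, had ratios of 2.71 and 1.86, and Sgk1, a kinase gene induced by serum and glucocorticoids, of 2.41 and 1.39. Btg2 had similar ratios in both comparisons, 2.40 and 2.13, like Egr1, while Ier3 and Ccn2 had a smaller one with the transgene, like Fos. Btg2 had already been picked as nearest to Egr1 among 14359 genes, so its likeness here is not a separate observation. Ier5, the fifth gene past 2-fold with the transgene, had 2.33 and 1.40, but its 3 probe sets ranged from 0.38 to 2.33 and from 0.16 to 1.40. Of the 24, 5 were lower in DS6 Myc than in DS6 (Ier3, Ccn2, Sik1, Sgk1 and Ier5, from -2.76 to -1.01) and Phlda1 was higher at 1.13 (median -0.35). Of all genes, 4.29% were lower and 0.769% higher in that comparison. The probe sets of Klf6 were far apart, from 0.61 to 3.27 in DS6 over WT. Klf4, not called at 0.72 by its brighter probe set, had 2.60 by its second there. The 1 gene lower in DS6 than in WT was Phlda1, a gene of apoptosis regulation, at -2.27. Phlda1, Ier5, Sik1 and Klf4 were named after their values were seen.

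Partner factors and the upstream pathway differed less at the mRNA level. Among all genes 7.24% were higher and 2.54% lower by 2-fold in DS6 over WT, and 1.99% and 1.36% in DS6 Myc over Myc. At such shares, counts near 0 in short lists say little about the lists. Of 10 measured bZIP partners outside the Fos and Jun families (Batf and Maf genes, Jdp2, Atf2 and Atf7), 0 passed 2-fold in either direction in either deletion comparison, with medians of 0.29 and 0.03. Of 16 MAP kinase pathway genes and promoter-bound activators, among them Mapk8, Mapk9, Mapk14, Srf, Elk1 and Creb1, 2 were higher in DS6 than in WT and 0 lower (median 0.09). In DS6 Myc over Myc 0 were higher and 0 lower (median 0.14). The 2 were Map3k1, a kinase upstream of Jun kinase, at 1.49, and the ternary complex factor Elk3 at 1.12. These kinases act through phosphorylation, which the arrays do not measure. The probe sets of Elk3 ranged from 0.06 to 1.12 and those of Map3k1 from 0.58 to 1.49.

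Feedback inhibitors of the MAP kinase pathway and of Egr1 had medians above 0 in both deletion comparisons. Of 14 such genes (Dusp phosphatases, Sprouty and Spred genes, Nab1 and Nab2), 4 were higher in DS6 than in WT and 0 lower (median 0.62). These were Dusp10 (1.60), which encodes a phosphatase of p38 and Jun kinase, Spry2 (1.36), Dusp4 (1.18) and Spry1 (1.08). The probe sets of Spry2 disagreed in sign, from -0.21 to 1.36, and those of Dusp10 ranged from 0.71 to 1.60. Those of Dusp8, not called at 0.39 and named after its values were seen, ranged from -0.41 to 1.25. Among all genes the share higher was 7.24% in DS6 over WT and 1.99% in DS6 Myc over Myc. Lower were 2.54% and 1.36%. With the transgene 0 of the 14 were higher and 1 was lower (median 0.39). The 1 was Dusp1, the immediate early phosphatase of MAP kinases, with log2 values of 11.46 in WT, 11.45 in DS6, 11.53 in Myc and 10.34 in DS6 Myc, and so a ratio of -1.20. Dusp1 was low on that array alone, whereas Egr1 and Atf3 were high on both arrays with deleted Rps6.

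Of 20 measured genes reported as AP-1 targets in other systems, 10 were at least 2-fold higher in DS6 than in WT and 0 lower (median 1.06), and 4 were higher in DS6 Myc than in Myc with 0 lower (median 0.28). The shares of all genes were 7.24% higher and 2.54% lower in the first comparison, and 1.99% and 1.36% in the second. Cd44, a hyaluronan receptor, had 7.25, 11.63, 7.65 and 8.83 on the 4 arrays, with ratios of 4.38 and 1.18, but its probe sets ranged from -0.23 to 4.38 in DS6 over WT. The heme oxygenase gene Hmox1 had 2.77 and 1.25, the protease inhibitor Timp1 2.09 and 0.62, and the metallothionein Mt2 1.98 and 0.03. Ccnd1, which encodes cyclin D1, had 10.59, 12.23, 9.69 and 12.15, and ratios of 1.64 and 2.46. Both arrays with deleted Rps6 were high for Ccnd1, as for Egr1 and Atf3, and it was lower in Myc than in WT by 0.90. Mmp13, a collagenase gene, had 1.43 with the transgene from values below 6 throughout, and was named after its value was seen. So were Hbegf and Mmp9, not called in DS6 over WT at 0.59 and 0.79, whose second probe sets had 1.92 and 1.72. Among all genes 4.29% were lower and 0.769% higher in DS6 Myc than in DS6. Of the 20 targets, 7 were lower in DS6 Myc than in DS6, Cd44 among them at -2.80, and Mmp13 was higher at 1.35 (median -0.62). Many of these genes have other regulators, and the list does not measure AP-1 activity.

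**Figure D4:**
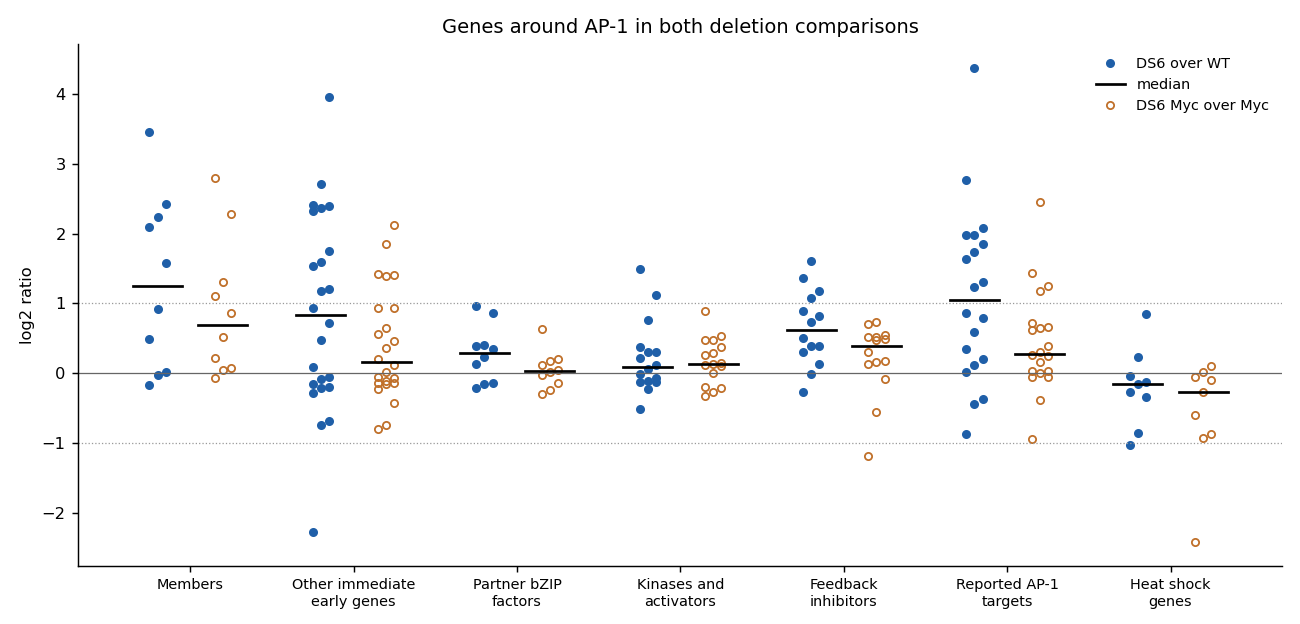
Log2 ratios (vertical axis) of the members and of 6 related gene lists (horizontal axis) for DS6 over WT (filled) and DS6 Myc over Myc (open); each point is 1 gene, bars are medians, dotted lines mark 2-fold, 1 array for each genotype. The member medians are 1.25 and 0.69, and those of the other immediate early genes 0.83 and 0.16.

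Markers of other cells moved with some of these values. Krt19, a keratin of bile duct cells, had log2 values of 7.13, 12.47, 7.04 and 7.53 on the 4 arrays. Bile duct and progenitor markers were higher in DS6 than in WT for 5 of 5 measured genes, and their linear values summed to 652 in WT, 18508 in DS6, 658 in Myc and 1201 in DS6 Myc. Among all genes 7.24% were at least 2-fold higher in DS6 over WT. The probe sets of Epcam ranged from 0.15 to 4.10 and those of Sox9 from 0.03 to 2.45 there. The macrophage and Kupffer cell list had 6 of 7 higher, with sums of 8983, 35276, 8041 and 13505. Neutrophil markers had 5 of 5 higher, with sums of 703, 23548, 621 and 696, and stellate cell and fibroblast markers 5 of 7, with sums of 6000, 20951, 7636 and 8420. In the stellate list the probe sets of Acta2 ranged from -0.07 to 1.70 in DS6 over WT and those of Col1a2 from 0.26 to 2.75. All 4 lists were highest in DS6, as Fos and Junb were, and the part of these cells in the values of Fos and Junb was not tested. In DS6 Myc over Myc, where 1.99% of all genes were at least 2-fold higher, Egr1 had a ratio of 2.28 and Atf3 of 2.79. Past 2-fold were 1 of 5 bile duct, 1 of 7 macrophage, 0 of 5 neutrophil and 0 of 7 stellate cell genes. The first 2 genes were Cd24a (1.45, with probe sets from 0.35 to 1.45) and the macrophage receptor Marco (1.52). All 5 bile duct and all 7 macrophage genes had ratios above 0 there, with medians of 0.49 and 0.79, and their part in the member values was not tested. The listed neutrophil markers S100a8 and S100a9 were at 7.42 and 7.76 in DS6 Myc against 7.02 and 7.50 in Myc, while S100a9 reached 13.50 in DS6. The paper groups both with damage-associated signals of innate immunity. RMA values have no zero, so no marker can be called absent. Endothelial markers and B and T cell markers had 0 genes at least 2-fold higher in either deletion comparison by their brightest probe sets. The second probe set of the endothelial gene Cdh5 had 1.05 in DS6 over WT, against 0.79 by the brighter one. Lyve1, also endothelial, was lower with the transgene at -1.20.

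Heat shock genes had medians below 0, as had all genes (-0.05 and -0.01), while the member medians were above 0. Among all genes 2.54% were at least 2-fold lower in DS6 over WT and 1.36% in DS6 Myc over Myc. Higher were 7.24% and 1.99%. Of 9 heat shock genes, 0 were higher and 1 was lower in each deletion comparison, with medians of -0.16 and -0.26. The spread between probe sets of a gene was 0.27 and 0.24 there. Hspb1, named after its values were seen, had 0.85 in DS6 over WT, but 1.02 by its second probe set, past 2-fold. The 1 lower gene was Hspa1b, an inducible Hsp70 gene, with log2 values of 11.30 in WT, 10.27 in DS6, 11.64 in Myc and 9.22 in DS6 Myc. Hspa1b was thus lowest in DS6 Myc.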

How the data were processed

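Liver RNA was measured on 4 arrays, 1 pool of 3 mice for each genotype. The authors deposited 1 log2 signal for each probe set and array, made by RMA and then quantile normalized. RMA and affy are the tools in the submitters' processing notes, which name no version. Array medians lay between 6.85 and 6.88. RMA shrinks ratios of dim probe sets, and quantile normalization gives all arrays nearly the same distribution, so only differences relative to the other genes are measured. The number of arrays limits the precision, and detection calls were not used here.

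The platform annotation gave 34958 probe sets a single symbol, and all 10 member symbols matched their Entrez identifiers in RefSeq for GRCm38.p6. Of the member probe sets, 0 were shared with another symbol. Where a gene had several probe sets, the brightest by its mean over the arrays was used, and log2 ratios were computed for 4 comparisons. Listed symbols with no such probe set were not analysed. A gene was called at 2-fold. Named genes were all members, up to 5 genes of each other list past 2-fold in a deletion comparison with a log2 value of 6 or more, and the 3 nearest in pattern to Fos, Jun, Egr1 and Atf3. Members and lists were chosen with earlier results of these data known, and 15 lists besides the members were examined. Counting was tested on simulated data. The spread between probe sets came from 3379 genes with 8477 probe sets at a mean of 8 or more. Sequence was read from RefSeq promoters. Alternatives were median-centring, renewed quantile normalization, the mean of all probe sets, no _x_at or _s_at probe sets, limits of 6 and 7 on dim probe sets, a linear pseudocount of 64, thresholds of 1.5-fold and 4-fold, and Myc as the reference. Python 3.11.15, numpy 2.4.6, pandas 2.3.3 and matplotlib 3.10.9 were used.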

Additional observations from a re-analysis of the deposited data

Results flagged for a closer look

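The c-Myc transgene went with opposite directions on the 2 Rps6 backgrounds for 4 members by their brightest probe sets, and these differences were not tested, since each is between single arrays. Fos had a log2 ratio of 0.95 with Rps6 intact and -1.40 with Rps6 deleted, a difference of -2.35. Junb had 0.45 and -0.61, a difference of -1.06. Jun had 0.77 and -0.17, a difference of -0.93, of which the second ratio is within the spread between probe sets. Fosb had 0.02 and -0.02, a difference of -0.0474, from values below 6 throughout. Fosl2 went opposite ways for the deletion, with -0.17 without the transgene and 0.08 with it, a difference of 0.24 that was not tested, and its second probe set was higher in both. For the transgene that second probe set had 0.22 with Rps6 intact and -1.28 with Rps6 deleted, a gap of -1.51 that was not tested, while the brighter one had 0.12 and 0.36.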

How the results depend on the processing

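With 1 array for each genotype, leaving out a replicate was not possible. No paired analysis was possible because each genotype has 1 array and the comparison comes from no test. Of 278 member ratios recomputed under the alternatives, 264 moved by less than the spread between probe sets, 14 moved by more and 0 called ratios changed direction. Many could not move. No member probe set was an _x_at or _s_at one, the dim limits kept the same probe sets, and genes with 1 probe set have no other mean. Ratios that moved were 5 of 10 with Myc as the reference, 5 of 40 with the mean of all probe sets and 4 of 40 with the pseudocount. The uncalled ratio of Fosl2 in DS6 Myc over DS6 went from 0.36 to -0.46 with the mean of all probe sets. The count of members higher in DS6 over WT was 5 under every alternative run at 2-fold, 6 at 1.5-fold and 4 at 4-fold. The median there was 1.58 and 1.83 with limits of 6 and 7 on dim probe sets, which leave 9 and 8 members, and 0.97 with Myc as the reference. In DS6 Myc over Myc the median was 0.44 with the mean of all probe sets and 0.98 with the limit of 7, and 2 members passed 4-fold. With the pseudocount of 64 the count there was 3 against 4, as Fos had 0.93. In Myc over WT 2 members were higher at 1.5-fold. In DS6 Myc over DS6, 0 members were higher with the pseudocount of 64 or at 4-fold, 2 were lower at 1.5-fold and 0 at 4-fold. The higher Atf3 in that comparison, at 2.05-fold, thus rests on the threshold. Among the other lists, immediate early genes past 4-fold numbered 6 and 1 in the 2 deletion comparisons, against 11 and 5 at 2-fold, and reported AP-1 targets 3 and 1, against 10 and 4. Feedback inhibitors higher in DS6 numbered 1 with the pseudocount of 64 against 4, and pathway kinases and activators 1 with renewed quantile normalization or the mean of all probe sets against 2. Reported targets higher with the transgene numbered 2 with the pseudocount. The median of the other immediate early genes in DS6 over WT was 0.47 with it, against 0.83.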
